A study of Homo sapiens with 18 samples.

Results

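C/D box small nucleolar RNAs were measured on 18 Affymetrix Gene arrays of transfected NCI-H1299 cells. A gene was taken as a member when its probe set carried a single gene symbol and that symbol began with SNORD and a digit, and the brightest probe set stood for each symbol. This gave 115 members among 18417 genes with a single symbol. Of the members, 46 belong to the imprinted arrays (2 of SNORD113, 4 of SNORD114, 20 of SNORD115 and 20 of SNORD116), and the other 69 include 3 pseudogenes of SNORD13. A further 49 probe sets list a SNORD name together with other symbols and were not counted as members.

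NCI-H1299 is a non-small cell lung carcinoma line without p53. In set 1 the cells received the empty GFP vector pIRES-2EGFP, WTp53 (full-length p53) or ΔNp53:WTp53 (the N-terminally shortened p53 isoform together with the full-length protein), in independent transfections numbered experiment 0, 4 and 5. In set 2, which the series calls control experiments and numbers d, e and f, the cells received the empty vector, WTp53 or tethered WTp53. Every group has 3 arrays, GFP-positive cells were sorted, and total RNA was extracted with an RNeasy-type column 40 h after transient transfection. The tethered arrays were grouped by title and description, although their transfection field names ΔNp53:WTp53, so a direction drawn from these libraries rests on the title. Nothing says whether experiments d, e and f were separate transfections, so p-values in set 2 may measure technical spread only.

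C/D box snoRNAs are short RNAs of the nucleolus, named after 2 conserved sequence boxes. They assemble with fibrillarin (FBL), NOP56, NOP58 and SNU13 and guide the methylation of ribose at chosen positions of ribosomal and spliceosomal RNA, while a few are needed to cut the ribosomal RNA precursor. Most human members lie in introns of a host gene and are trimmed out of the spliced intron, so that host and snoRNA come from 1 transcript. Many hosts encode ribosomal proteins, and others, such as GAS5 and the SNHG genes, are noncoding genes best known for the snoRNAs in their introns. SNORD113 and SNORD114 lie in MEG8, in the DLK1-MEG3 imprinted domain, and SNORD115 and SNORD116 lie in SNHG14, in the Prader-Willi domain, where they are best known from brain.

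All values are log2 intensities, and a difference is the log2 value of one group minus that of the other, with its standard error from limma. The columns used retain RNA as short as a mature snoRNA poorly, and a probe set inside an intron also reads unspliced host RNA, so mature snoRNA and host precursor cannot be told apart. Fewer cells of a type and less RNA per cell cannot be told apart in bulk RNA either. The 2 sets were normalized apart, so levels are compared only within a set. A gene was called when limma's adjusted p was under 0.05 over all 18417 genes, and with 3 arrays against 3 an exact permutation test could reach no less than 0.1.

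The known p53 targets CDKN1A and MDM2 checked the labels of vector against p53 arrays. Neither was called between the p53 constructs of a set, so they cannot check which construct an array received. CDKN1A, the cell cycle inhibitor p21, rose by 4.62 with WTp53 and by 3.69 with ΔNp53:WTp53 in set 1, and by 3.13 with WTp53 and 3.22 with tethered WTp53 in set 2. MDM2, which marks p53 for degradation, rose by 3.41, 3.09, 2.11 and 2.27 in the same order. Keratins KRT8 and KRT18 and vimentin, expressed by this line, lay between the 94.7th and 99.4th percentile of genes, and 9 markers of other cell types between the 1.9th and 47.8th. The median array SD of the members in a group was 0.12 to 0.16 in set 1 and 0.09 to 0.12 in set 2.

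Of the 115 members, 113 lie inside another gene in the RefSeq annotation. For the 69 members outside the imprinted arrays, the host was taken as the longest measured gene that contains the member, or otherwise the longest containing gene, and was a ribosomal protein gene for 20, a noncoding gene for 20 (including a noncoding read-through transcript for SNORD117) and another protein-coding gene for 27. The start of the noncoding hosts is shown here because most of these genes have no probe set with a single symbol, so that their members are the data on them. GAS5 holds 7 members, SNHG1 and SNHG5 hold 2 each, SNHG19 and ZFAS1 hold 1 each, and each line gives the 40 bases before and the 20 bases from the annotated start, 5′ to 3′ on the gene's strand (RefSeq, GRCh38.p14). Capitals mark a run of 5 or more pyrimidines that opens with C within 5 bases of the start, as in the 5′ terminal oligopyrimidine tract of genes of the translation machinery.
GAS5, minus strand, chr1:173869026-173869085: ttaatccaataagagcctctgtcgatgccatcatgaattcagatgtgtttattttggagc
SNHG1, minus strand, chr11:62855866-62855925: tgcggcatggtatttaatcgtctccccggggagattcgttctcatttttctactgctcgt
SNHG5, minus strand, chr6:85678714-85678773: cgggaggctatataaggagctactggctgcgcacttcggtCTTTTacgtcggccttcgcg
SNHG19, minus strand, chr16:2155339-2155398: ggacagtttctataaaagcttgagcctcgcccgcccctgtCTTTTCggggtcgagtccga
ZFAS1, plus strand, chr20:49278602-49278661: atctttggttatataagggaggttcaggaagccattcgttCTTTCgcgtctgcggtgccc

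Such a run, searched on the gene's strand only, was present at 16 of the 32 host genes with an entry in the promoter table. These 32 host non-imprinted members other than the 3 SNORD13 pseudogenes. Of all 35116 promoters of that table, 21.1% held such a run. The decamer motif of p53, searched in the 300 bases from 250 before to 50 after the start, was found at 1 of the 32 hosts (ZFAS1) and at 6.63% of all promoters. The decamer reads the same on both strands, so 1 search covers both. These are letter matches and do not show binding or a tract in use, and a window without the letters says nothing about the factor. For each host only 1 annotated start was searched. A window without a marked run, as for GAS5 and SNHG1, therefore does not show that the gene lacks such a tract.

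The imprinted members and the others differed in level. All 46 imprinted members in set 1, and 45 of 46 in set 2, were dim, which here means a mean below the 30th percentile of all genes (4.32 in set 1 and 6.62 in set 2). Of the 69 others, 16 were dim in each set. Imprinted means ran from 2.15 to 3.06 in set 1 and from 2.85 to 6.94 in set 2, against 2.28 to 10.4 and 3.25 to 12.7 for the others. A dim probe set may read background only, so small differences among the imprinted members cannot be told from none.

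WTp53 in set 1 was followed by lower signal for more non-imprinted C/D box snoRNAs than higher signal. Of the 115 members 7 rose, where 15.2% of all genes rose, and 18 fell, where 16.6% of all genes fell. All 25 were among the 69 non-imprinted members, of which 10.1% rose and 26.1% fell. The median difference was −0.24 for the 69, 0.04 for the 46 imprinted members and 0.02 for all genes. The groups did not overlap for 39 of the 115 members (33.9%), including every called member, and for 48.8% of all genes.

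With ΔNp53:WTp53 in set 1, 4 members rose, where 15.7% of all genes rose, and 14 fell, where 20.3% of all genes fell, none of them imprinted. The median difference was −0.11 for the non-imprinted members and −0.01 for the imprinted ones. In set 1 arrays of the same experiment number deviated together, and so did arrays of experiment 4 with those of experiment 5. With the experiment as a replicate block 29 members were called in place of 18, of which 5 rose and 24 fell. Over all 18417 genes 7103 were called in place of 6640. The 11 gained members include SNORD13, SNORD28, SNORD30 and SNORD78.

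ΔNp53:WTp53 against WTp53 in set 1 gave few calls. SNORD44, SNORD78 and SNORD38A rose, where 1.56% of all genes rose, and SNORD45C fell, where 0.88% of all genes fell. The median difference was −0.02 for the 69 non-imprinted members and −0.03 for the 46 imprinted ones. SNORD44 alone was called without WTp53 experiment 4, without WTp53 experiment 5, without ΔNp53:WTp53 experiment 4, or when only the 6 arrays compared entered the fit. Without ΔNp53:WTp53 experiment 5, 2 members were called, SNORD44 and SNORD38A, and without WTp53 experiment 0 SNORD38A and SNORD45C lost their call.

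WTp53 in set 2 gave the opposite balance. Of the members 26 rose, where 17.9% of all genes rose, and 12 fell, where 18.9% of all genes fell. Of the 69 non-imprinted members 33.3% rose and 17.4% fell, and their median difference was 0.16, against 0.07 for the imprinted members and −0.02 for all genes. The rises were spread over small differences, with a highest of 0.71 among the non-imprinted members, and the falls reached −1.18. The groups did not overlap for 46 of the 115 members (40.0%), and for 47.2% of all genes.

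With tethered WTp53 against vector, 7 members rose, where 21.6% of all genes rose, and 30 fell, where 26.2% of all genes fell. Of the 69 non-imprinted members 40.6% fell and 10.1% rose, with a median of −0.15, while 2 of 46 imprinted members fell. With every array centred on its median the split of the members was 4 higher to 44 lower, and 9692 of all genes were called in place of 8795. Of the 37 called members, 7 had overlapping groups.

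Tethered WTp53 against WTp53 in set 2 was the most one-sided comparison of the 6. A single member, SNORD13P2, rose, where 14.9% of all genes rose, and 38 fell, where 17.5% of all genes fell. Of the 69 non-imprinted members 50.7% fell, and 57 of 69 had a difference below 0, with a median of −0.32 where all genes had 0.02. H/ACA box snoRNAs (SNORA symbols), which guide pseudouridylation, gave 35 of 61 lower and 2 higher, with a median of −0.26. Of 179 microRNA genes, 8 were higher and 7 lower, with a median of 0.03. With a spread shared over all 18 arrays, 23 of the 39 members were still called, and all 23 fell.

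**Figure D1:**
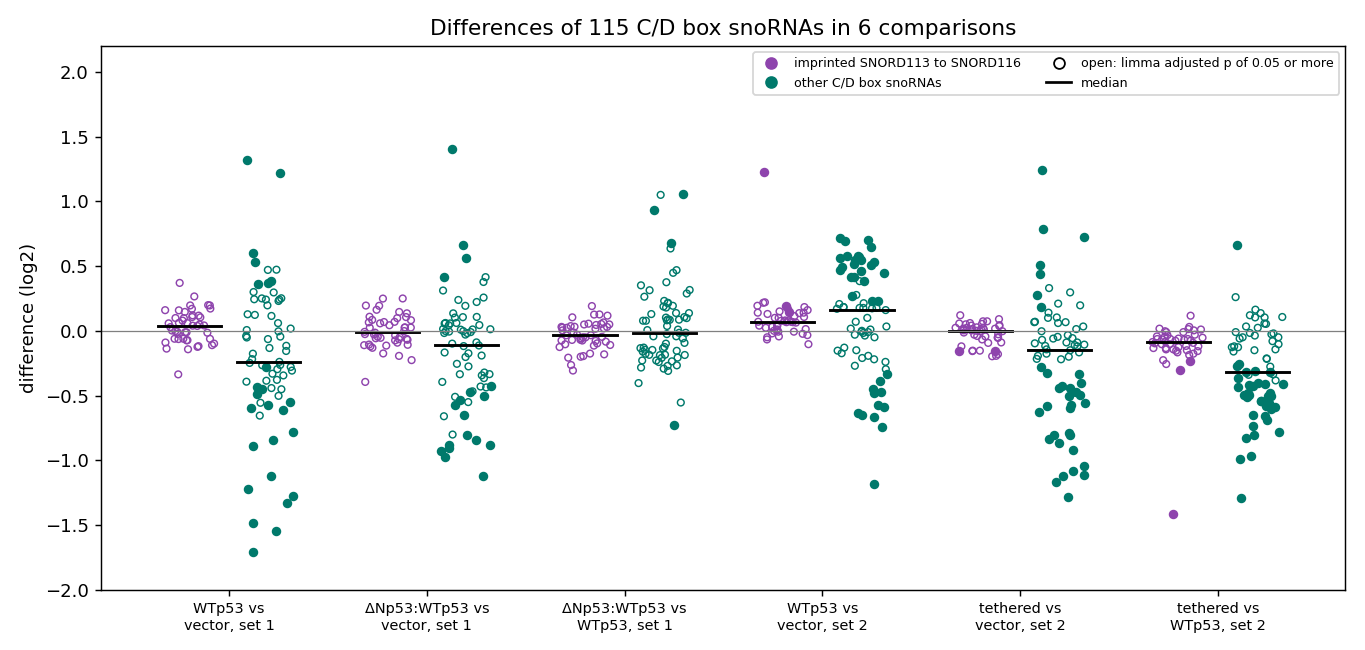
Log2 difference of each of the 115 members (points) in the 6 comparisons, with the 46 imprinted members in purple and the 69 others in green; filled points passed limma's adjusted p of 0.05 and black lines are medians. The imprinted points lie close to 0 apart from SNORD114-3 in set 2 (1.22 and −1.42), and the green median is lowest, −0.32, in tethered against WTp53.

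The level of the class was also read on single arrays, as the median of the levels of its members. A shift of this median is not the median of the members' differences. The latter was −0.24 with WTp53 and −0.11 with ΔNp53:WTp53 in set 1. In set 2 it was 0.16 with WTp53 and −0.15 with tethered WTp53. The median over the 69 non-imprinted members was 6.74, 6.37 and 6.52 on the vector arrays of experiments 0, 4 and 5, 6.28, 5.93 and 5.86 with WTp53, and 6.29, 6.09 and 5.84 with ΔNp53:WTp53. Every array with a p53 construct in set 1 lay below every vector array, and within each experiment as well. In set 2 the medians were 8.47, 8.45 and 8.58 with vector (experiments d, e and f), 8.47, 8.48 and 8.68 with WTp53 and 7.97, 8.21 and 8.03 with tethered WTp53. The 3 tethered arrays lay below the other 6, and the vector and WTp53 arrays overlapped. The median of the 46 imprinted members stayed within 2.37 to 2.56 on the set 1 arrays and 3.46 to 3.62 on the set 2 arrays.

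**Figure D2:**
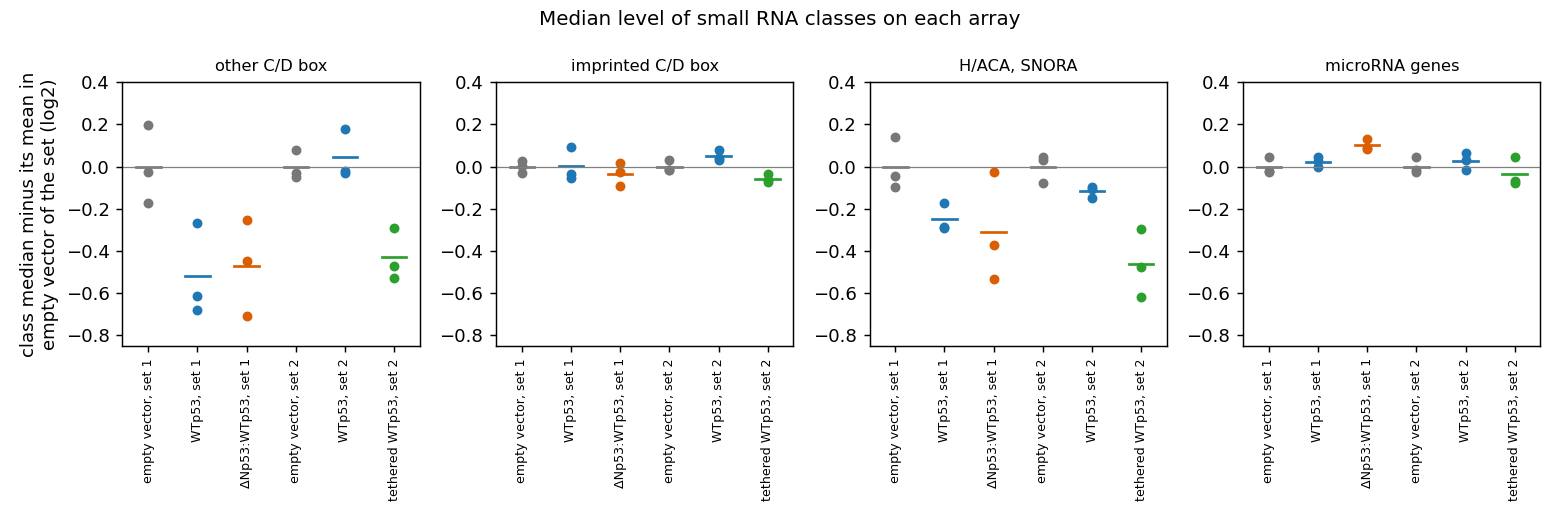
Median log2 level of 4 small RNA classes on each array (points), minus the mean of the same class median in the vector arrays of the same set; short lines are group means of 3 arrays. The non-imprinted C/D box median lies at −0.52 for WTp53 and −0.47 for ΔNp53:WTp53 in set 1 and at −0.43 for tethered WTp53 in set 2, while WTp53 in set 2 lies at 0.04. The median differences of these members from vector were −0.24, −0.11, −0.15 and 0.16 in the same order.

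GAS5 carries the largest family outside the imprinted arrays. Its 7 members, in order from the start of the gene, are SNORD74, SNORD75, SNORD77, SNORD44, SNORD78, SNORD79 and SNORD81, and GAS5 itself is a noncoding gene named for its accumulation in growth-arrested cells. With WTp53 5 of 7 fell in set 1 (median −1.12) and 5 of 7 fell in set 2 (median −0.57). With ΔNp53:WTp53 4 of 7 fell (median −0.43) and with tethered WTp53 6 of 7 fell (median −0.79), each against its own vector arrays. None rose against vector in any of these 4 comparisons.

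SNORD44 read 8.75, 8.61 and 8.54 on the vector arrays of experiments 0, 4 and 5, 7.50, 6.89 and 7.06 with WTp53, and 8.24, 8.20 and 8.18 with ΔNp53:WTp53. The 3 groups did not overlap, and ΔNp53:WTp53 lay between the other two. Against vector the difference was −1.49 ± 0.14 with WTp53 (2.80-fold lower, limma adjusted p = 7.52e-05) and −0.43 ± 0.14 with ΔNp53:WTp53 (adjusted p = 0.0394), and the step from WTp53 to ΔNp53:WTp53 was 1.06 ± 0.14 (adjusted p = 0.00874). The call of SNORD44 for ΔNp53:WTp53 against vector was lost with a spread shared over all 18 arrays, after a further quantile normalization and in 5 of the 6 fits that left out 1 array, all but that without ΔNp53:WTp53 experiment 0. In set 2 SNORD44 read 9.48, 9.27 and 9.38 with vector, 8.83, 8.96 and 9.62 with WTp53, and 8.19, 8.78 and 8.03 with tethered WTp53. Here the vector and WTp53 arrays overlapped because experiment f of WTp53 lay above all 3 vector arrays, and the difference of −0.24 ± 0.21 did not pass (adjusted p = 0.43), while tethered WTp53 lay below both groups (−1.04 ± 0.21 against vector, adjusted p = 0.00172).

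SNORD78 read 8.73, 8.37 and 8.47 with vector, 7.57, 7.01 and 7.01 with WTp53, and 8.29, 8.07 and 8.02 with ΔNp53:WTp53 in set 1. WTp53 arrays were the lowest, without overlap, by −1.33 ± 0.16 (adjusted p = 0.000265), and ΔNp53:WTp53 was above WTp53 by 0.93 ± 0.16 (adjusted p = 0.0203). Against vector the ΔNp53:WTp53 difference of −0.39 ± 0.16 did not pass without the replicate block (adjusted p = 0.0883) and passed with it (adjusted p = 0.010). In set 2 SNORD78 read 9.32, 9.23 and 9.21 with vector, 7.74, 8.28 and 8.20 with WTp53, and 7.90, 8.50 and 7.99 with tethered WTp53. Both p53 groups lay below all vector arrays (−1.18 ± 0.16 and −1.12 ± 0.16, adjusted p = 0.000161 and 0.000133), and they overlapped each other.

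SNORD77, SNORD79 and SNORD81 fell in all 4 comparisons against vector. SNORD79 read 6.85, 6.98 and 6.84 with vector, 6.01, 5.52 and 5.78 with WTp53 and 6.29, 6.13 and 6.30 with ΔNp53:WTp53 in set 1, so every p53 array was below every vector array. Its differences from vector were −1.12 and −0.65 in set 1 and −0.64 and −0.79 in set 2. SNORD77, which was dim in both sets, fell by 1.28, 0.93, 0.59 and 0.63 in the same order, and SNORD81 by 0.57, 0.84, 0.48 and 0.58. With WTp53 in set 2 the call of SNORD79 was lost without vector experiment f or WTp53 experiment d, and that of SNORD77 without experiment d or f of either group and with the shared spread.

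SNORD74 and SNORD75, nearest to the start of GAS5, were not called in set 1. SNORD74 read 8.66, 8.53 and 8.69 with vector and 8.59, 8.58 and 8.56 with WTp53, which overlap, with a difference of −0.04 ± 0.09 (adjusted p = 0.758). SNORD75 had −0.34 ± 0.14 with WTp53 (adjusted p = 0.0876) and −0.03 ± 0.14 with ΔNp53:WTp53 in set 1, yet in set 2 it fell by 0.57 with WTp53 and by 1.12 with tethered WTp53. The members of this host had differences from −0.04 to −1.49 under WTp53 in set 1, and the difference between members was not tested.

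**Figure D3:**
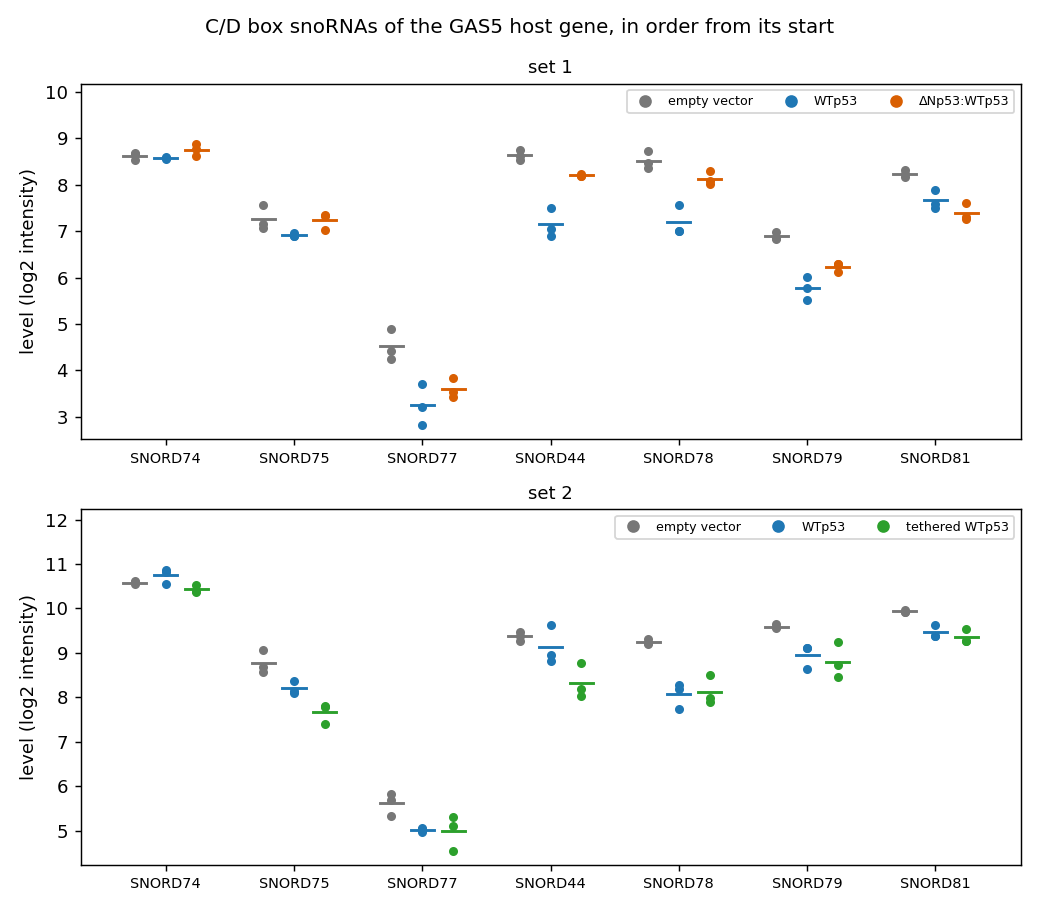
Log2 level of the 7 members of GAS5 on each array, in order from the start of the host, with set 1 above and set 2 below; points are arrays, short lines group means (n = 3). In set 1 the WTp53 points of SNORD77, SNORD44, SNORD78, SNORD79 and SNORD81 lie below the vector points, and the ΔNp53:WTp53 points of SNORD44 and SNORD78 lie between.

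RABGGTB, which encodes a subunit of an enzyme that attaches lipid anchors to Rab proteins, carries SNORD45A, SNORD45B and SNORD45C. Of the 3, 2 fell with WTp53 and 3 with ΔNp53:WTp53 in set 1, and 1 fell with WTp53 and 3 with tethered WTp53 in set 2. The host gene fell in the same 4 comparisons, by 0.72, 0.81, 0.45 and 0.49. SNORD45C read 6.40, 6.66 and 6.57 with vector, 6.28, 6.42 and 6.19 with WTp53 and 5.84, 5.41 and 5.45 with ΔNp53:WTp53. Vector and WTp53 overlapped and ΔNp53:WTp53 lay below both, by −0.98 ± 0.13 against vector (adjusted p = 0.000392) and −0.73 ± 0.13 against WTp53 (adjusted p = 0.0227, a call lost in 5 of the 6 fits that left out 1 array).

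SNORD45B did not separate the p53 constructs in set 1. It read 7.42, 7.73 and 7.73 with vector, 6.76, 6.46 and 5.99 with WTp53 and 6.77, 6.44 and 6.30 with ΔNp53:WTp53, so that both p53 groups were low and overlapped each other (−1.22 ± 0.19 and −1.12 ± 0.19 against vector). SNORD45A fell by 0.59 and 0.80 in set 1. In set 2 tethered WTp53 lowered SNORD45A, SNORD45B and SNORD45C by 0.47, 0.56 and 1.08, and the arrays of SNORD45A overlapped with those of vector. That call of SNORD45A was lost without experiment d or f of either group.

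RPL23A, the gene of a protein of the large ribosomal subunit, carries SNORD42A, SNORD4A and SNORD4B, and here tethered WTp53 stood apart. SNORD4B read 9.28, 9.20 and 9.35 with vector, 9.95, 9.92 and 10.04 with WTp53 and 8.48, 8.99 and 8.56 with tethered WTp53. The groups did not overlap, with WTp53 highest and tethered WTp53 lowest. Against vector the difference was 0.69 ± 0.11 with WTp53 (adjusted p = 0.00046) and −0.60 ± 0.11 with tethered WTp53 (adjusted p = 0.000805), and the step between them was −1.29 ± 0.11, or 2.45-fold lower (adjusted p = 3.05e-05). SNORD42A and SNORD4A fell by 0.99 and 0.78 from WTp53 to tethered WTp53. The RPL23A probe set itself differed by −0.14 there (adjusted p = 0.064), and in set 1 none of the 3 members was called without the replicate block. With it SNORD42A (−0.39, adjusted p = 0.040) and SNORD4A (−0.31, adjusted p = 0.0198) passed for WTp53, and SNORD4A (−0.44, adjusted p = 0.00305) for ΔNp53:WTp53.

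The noncoding host SNHG5 carries SNORD50A and SNORD50B. SNORD50B read 9.08, 8.82 and 8.85 with vector, 9.02, 8.92 and 9.11 with WTp53 and 7.97, 8.09 and 8.08 with tethered WTp53. Vector and WTp53 overlapped, and tethered WTp53 was lower than both, by −0.87 ± 0.07 against vector (adjusted p = 2.54e-06) and −0.97 ± 0.07 against WTp53 (adjusted p = 1.95e-05). SNORD50A rose with WTp53 in both sets (0.39 and 0.23) and fell by 0.50 with tethered WTp53. Its set 1 call was lost with every array centred on its median and in 5 of the 6 fits that left out 1 array, all but that without vector experiment 0, and its set 2 call for WTp53 with the shared spread. The 2 members of SNHG1, SNORD28 and SNORD30, also fell with tethered WTp53, by 0.81 and 0.92 against vector and by 0.59 and 0.58 against WTp53.

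RPL13A, another large-subunit protein gene, carries SNORD32A, SNORD33, SNORD34 and SNORD35A. All 4 fell from WTp53 to tethered WTp53, by 0.27 to 0.48, and with the shared spread SNORD32A, SNORD33 and SNORD34 lost that call. Against vector in set 2, SNORD32A, SNORD33 and SNORD35A rose with WTp53 by 0.44, 0.27 and 0.51 and were not called with tethered WTp53 (with the shared spread the rises of SNORD32A and SNORD33 were not called), while SNORD34 differed by −0.01 with WTp53 and fell by 0.43 with tethered WTp53. In set 1 SNORD33, which had the highest mean of the members there, rose by 0.53 and SNORD34 fell by 0.78 with WTp53. SNORD34 read 6.90, 6.75 and 6.80 with vector and 6.33, 6.10 and 5.67 with WTp53, without overlap, so 2 snoRNAs of 1 host moved in opposite directions.

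RPL3, again a large-subunit gene, carries SNORD43, SNORD83A and SNORD83B. SNORD83A fell by 0.61 with WTp53 and by 0.47 with ΔNp53:WTp53 in set 1 (the second call was lost without experiment 5 of either group), and SNORD43 fell by 0.40 with tethered WTp53 against vector. SNORD83B passed the test in none of the 6 comparisons, with differences from −0.12 to 0.00. RPL3 itself was not called in any of the 6.

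RPS20, the gene of a small-subunit protein, carries a member that rose. SNORD54 read 7.54, 7.05 and 7.01 with vector, 8.58, 8.32 and 8.34 with WTp53 and 7.72, 7.84 and 8.02 with ΔNp53:WTp53 in set 1. Every WTp53 array was above every ΔNp53:WTp53 array, and these were above every vector array. The rise was 1.22 ± 0.15 with WTp53 (2.32-fold, adjusted p = 0.00027) and 0.66 ± 0.15 with ΔNp53:WTp53 (adjusted p = 0.00633), and between these the difference of −0.55 did not pass (adjusted p = 0.0875). In set 2 the rise was 0.70 ± 0.09 with WTp53 and 0.72 ± 0.09 with tethered WTp53. RPS20 itself differed by 0.07 to 0.14 from vector and was not called.

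**Figure D4:**
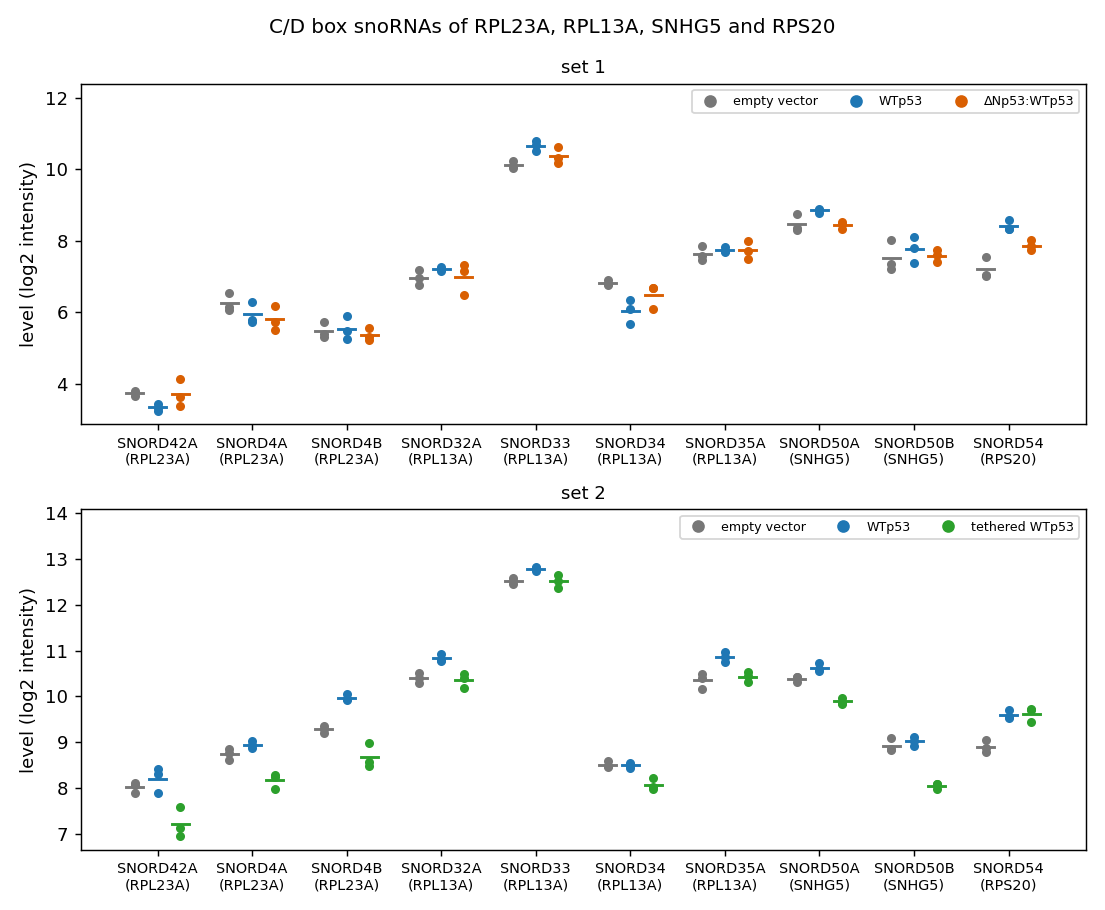
Log2 level of members of RPL23A, RPL13A, SNHG5 and RPS20 on each array, with the host in parentheses; points are arrays and short lines group means (n = 3), with set 1 above and set 2 below. In set 2 the tethered WTp53 points of SNORD42A, SNORD4A, SNORD4B, SNORD50A and SNORD50B lie below the other groups, while SNORD54 lies above vector with both p53 constructs.

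Single members in other hosts had differences as large. SNORD49A in the noncoding gene SNHG29 read 6.67, 6.84 and 7.01 with vector, 5.87, 5.28 and 4.25 with WTp53 and 6.29, 6.09 and 6.16 with ΔNp53:WTp53. The WTp53 arrays were lowest and spread over more than 1 log2 unit, and the fall of −1.71 ± 0.32 was the largest among the members (adjusted p = 0.00243). SNHG29 itself had −0.21 (adjusted p = 0.062). In set 2 SNORD49A fell by 0.65 with WTp53 and by 1.17 with tethered WTp53.

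SNORD63 in HSPA9, which encodes a mitochondrial chaperone, fell against vector in all 4 comparisons, by 0.89, 0.88, 0.74 and 1.28. In set 2 it read 6.37, 6.28 and 6.38 with vector, 5.55, 5.59 and 5.67 with WTp53 and 5.09, 5.09 and 5.01 with tethered WTp53. The 3 groups were separate and the tethered arrays lowest (adjusted p = 7.09e-09 against vector and 4.14e-05 against WTp53). SNORD63 was dim in both sets. HSPA9 fell by 0.40, 0.54, 0.39 and 0.42 against vector, and from WTp53 to tethered WTp53 it differed by −0.03.

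SNORD13P2 is annotated as a pseudogene of SNORD13 inside FOXK1, a transcription factor gene. It rose against vector in all 4 comparisons, by 1.32, 1.41, 0.58 and 1.24, and FOXK1 rose by 0.96, 0.92, 0.31 and 0.39. In set 2 SNORD13P2 read 5.41, 5.16 and 5.12 with vector, 5.79, 5.84 and 5.80 with WTp53 and 6.32, 6.49 and 6.60 with tethered WTp53, again 3 separate groups. It was dim in set 2. With the shared spread its calls there for WTp53 against vector and for tethered WTp53 against WTp53 were lost.

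Members tied to cleavage of the ribosomal RNA precursor were called in some comparisons. SNORD13 (U13), transcribed from its own promoter, rose with WTp53 in set 1 (0.60 ± 0.16, adjusted p = 0.0173) and was not called with WTp53 in set 2 (0.02 ± 0.09, adjusted p = 0.914). Its near copy SNORD13P3, whose probes may read the same RNA, had 0.47 and −0.01. The set 1 call of SNORD13 was lost without vector experiment 5, WTp53 experiment 4 or WTp53 experiment 5. SNORD14C and SNORD14E (U14), both in the chaperone gene HSPA8, had the same sign as each other in all 4 comparisons against vector. SNORD14C fell with WTp53 in set 1 (−0.45, lost without WTp53 experiment 4), where SNORD14E had −0.24 and was not called. With ΔNp53:WTp53 they had −0.32 and −0.25, neither called. SNORD14E rose by 0.65 with WTp53 in set 2 (lost in 5 of the 6 fits that left out 1 array) and by 0.79 with tethered WTp53, where SNORD14C had 0.18 and 0.30 and was not called. SNORD32A and SNORD32B, which are likewise near copies, had 0.44 and 0.39 with WTp53 in set 2 and −0.48 and −0.50 from WTp53 to tethered WTp53, called except with the shared spread. In set 1 they had 0.24 and −0.04 with WTp53, neither called.

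The imprinted arrays gave few calls. None of the 46 members was called in set 1. In set 2, SNORD113-3, SNORD114-3 and SNORD115-4 rose with WTp53, SNORD115-2 and SNORD116-23 fell with tethered WTp53 against vector, and SNORD114-3, SNORD116-22 and SNORD116-6 fell from WTp53 to tethered WTp53. All but SNORD114-3 were dim, with called differences of −0.30 to 0.19. With a spread shared over all 18 arrays, every imprinted call except those of SNORD114-3 was lost. Centred on the array median, SNORD113-3 and SNORD115-4 lost their call for WTp53. SNORD116-22 and SNORD116-6 also lost theirs with probe sets of several symbols included. In the 6 fits that left out 1 array, the call was lost in 5 for SNORD113-3, in 4 for SNORD115-4, in 4 for SNORD115-2, in 2 for SNORD116-23 and in 3 for SNORD116-6.

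SNORD114-3 read 6.77, 6.40 and 6.62 with vector, 8.03, 7.47 and 7.96 with WTp53 and 6.01, 6.29 and 6.91 with tethered WTp53. Its WTp53 arrays were the highest, without overlap, by 1.22 against vector (adjusted p = 0.000833), and the difference of tethered WTp53 from WTp53 was −1.42 (adjusted p = 0.000624). Its probe set is also annotated with another transcript, so it may not read the snoRNA alone. In set 1 it read 2.97 to 3.08 with vector and 2.97 to 3.45 with WTp53, which overlap. The other 3 SNORD114 members differed by 0.01 to 0.16 with WTp53 in set 2 and were not called.

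By family, the means in set 1 ran from 2.52 (SNORD113-4) to 2.78 (SNORD113-3), from 2.45 (SNORD114-6) to 3.06 (SNORD114-3), from 2.15 (SNORD115-4) to 2.71 (SNORD115-24) and from 2.21 (SNORD116-18) to 2.96 (SNORD116-15). In set 2 they ran from 3.77 to 4.14 in SNORD113, from 3.48 to 6.94 in SNORD114, from 2.85 (SNORD115-4) to 4.02 (SNORD115-32) and from 3.11 (SNORD116-18) to 5.29 (SNORD116-15). Of 14 neighbouring genes of both domains, 8 were measured. MKRN3, a paternally expressed gene of the Prader-Willi domain, fell against vector in all 4 comparisons (by 0.73, 0.62, 0.38 and 0.35), and UBE3A, a ubiquitin ligase gene beside the arrays, fell with WTp53 (0.22) and tethered WTp53 (0.42) in set 2. MEG3 rose from WTp53 to tethered WTp53 by 0.29, and DLK1 rose with tethered WTp53 by 0.25.

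The WTp53 effect was measured in both sets against separate vector arrays. Of the 7 members that rose in set 1, 6 rose in set 2, which is 85.7% of the set 1 rises and 23.1% of the 26 set 2 rises. Of the 18 that fell in set 1, 8 fell in set 2, which is 44.4% of the set 1 falls and 66.7% of the 12 set 2 falls. Across the 115 members the differences had Pearson's r of 0.60 (0.65 over the 69 others and 0.22 over the 46 imprinted members). This is a description across genes, which share arrays and hosts and are not independent. Neither the shares nor r were computed over all genes, so they do not show whether members repeated more often than other genes. SNORD105 and SNORD94 fell in set 1 and rose in set 2. Their set 1 calls were lost without vector experiment 5, WTp53 experiment 4 or WTp53 experiment 5, and the set 2 call of SNORD105 without vector experiment e or WTp53 experiment f.

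The difference between the sets was itself tested in a fit over all 18 arrays, and 8 of 115 members passed, where 13.2% of all genes passed. All 8 had the lower WTp53 effect in set 1, which is 6.96% of the members, where 6.999% of all genes were lower. No member had the higher effect in set 1, where 6.25% of all genes did. The share of lower effects among the members was thus that of all genes. Among the 69 non-imprinted members it was 11.6%. SNORD59B, in the ATP synthase gene ATP5F1B, read 6.80, 6.10 and 6.07 with vector and 5.02, 4.77 and 4.55 with WTp53 in set 1, against 6.68, 6.82 and 6.91 and then 6.81, 6.86 and 7.29 in set 2. It fell by 1.54 in set 1 without overlap and differed by 0.18 with overlap in set 2. The difference between the sets was −1.73 ± 0.33 (adjusted p = 0.00328).

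**Figure D5:**
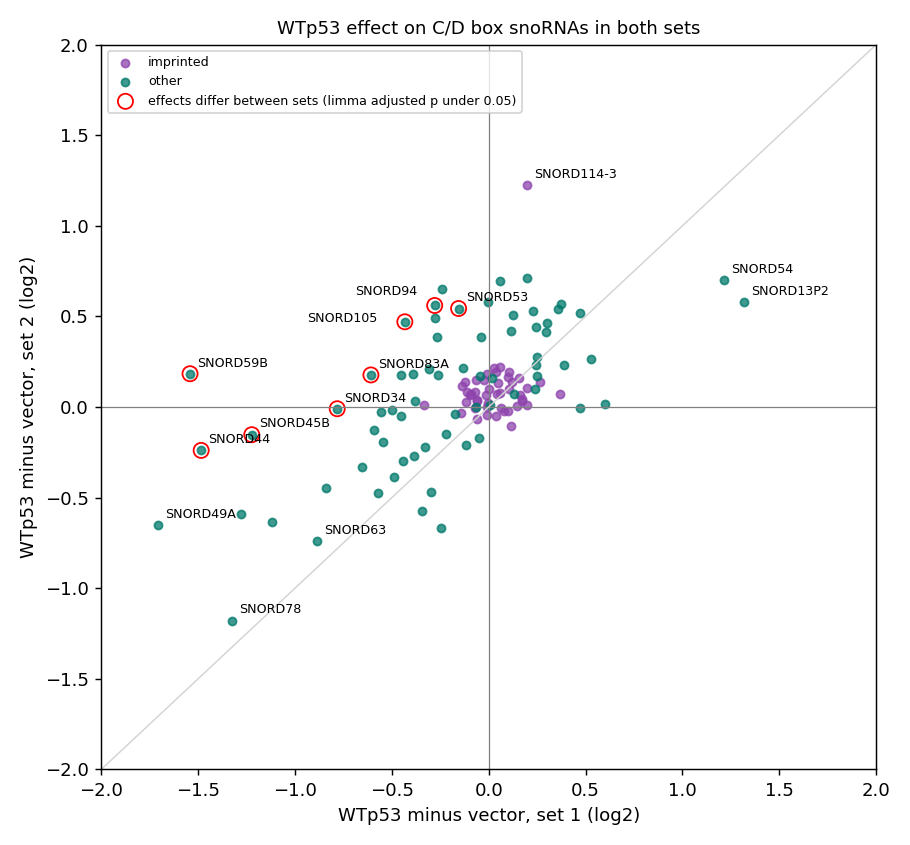
WTp53 minus vector of each member in set 1 (x axis) and set 2 (y axis), both log2, with imprinted members in purple, others in green and red rings on the 8 members whose effect differed between the sets. SNORD78, SNORD49A and SNORD63 lie low on both axes, SNORD54 and SNORD13P2 high on both, and the ringed members lie above the diagonal.

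Member and host could be set side by side for 35 members in 25 measured hosts. Counts are of members, so a host with several members counts more than once. RABGGTB counts 3 times with ΔNp53:WTp53 and with tethered WTp53, each against vector. With WTp53 in set 1, 12 of these members were called, and the host was called in the same direction for 5 and not called for 7. With ΔNp53:WTp53 against vector, 10 were called, with the host the same way for 6 and not called for 4, and against WTp53 1 was called and its host was not. With WTp53 in set 2, 16 were called, with the host the same way for 4, the opposite way for 1 and not called for 11. With tethered WTp53 against vector, 18 were called, with the host the same way for 8, the opposite way for 1 and not called for 9. From WTp53 to tethered WTp53, 20 were called, with the host moving the same way for 4 (NCL, which carries SNORD20 and SNORD82, RPL7A and RPL17), the opposite way for 2 and not called for 14. The calls there of SNORD20, SNORD58A (in RPL17) and SNORD36B (in RPL7A) were lost with the shared spread. In the 6 fits that left out 1 array, the call was lost in 4 for SNORD20 and in 5 for SNORD58A. That of SNORD58A was also lost with the replicate block and with only the 6 arrays compared. The opposite pairs were SNORD94 (−0.50) with PTCD3 (0.15) and SNORD53 (−0.66) with WDR43 (0.15). The median size of difference there was 0.34 for the members and 0.09 for their hosts.

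Proteins that bind and assemble C/D box snoRNAs were measured as messenger RNA. FBL, the methyltransferase, was called only with tethered WTp53 against vector (−0.11), and NOP58, a core scaffold, fell with WTp53 in set 1 (0.35), with ΔNp53:WTp53 (0.66) and with tethered WTp53 (0.47 against vector and 0.37 against WTp53). Of 12 assembly and maturation factors, 2 rose and 5 fell with WTp53 in set 1, 2 rose and 9 fell with ΔNp53:WTp53, 3 rose and 7 fell with WTp53 in set 2, and 2 rose and 9 fell with tethered WTp53. In the same order 15.2%, 15.7%, 17.9% and 21.6% of all genes rose and 16.6%, 20.3%, 18.9% and 26.2% fell. NUFIP1, ZNHIT6 and RPAP3, which help build the particle, fell against vector in all 4, with WTp53 in set 1 by 1.28, 1.33 and 0.96. TGS1, which modifies caps of small RNAs, and the assembly factor NOPCHAP1 rose in all 4, with WTp53 in set 1 by 1.39 and 1.12.

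Of 17 factors of ribosomal RNA transcription and the nucleolus, 3 rose and 8 fell with WTp53 in set 1, 4 rose and 8 fell with ΔNp53:WTp53, 4 rose and 7 fell with WTp53 in set 2, and 3 rose and 12 fell with tethered WTp53, beside the same shares of all genes. TAF1A and TAF1D, parts of the selectivity factor of RNA polymerase I, and RRN3, which brings the polymerase to the promoter, fell against vector in all 4, with WTp53 in set 1 by 1.48, 1.05 and 0.97. UBTF and POLR1A rose in all 4. Whether these changes bear on the snoRNA values was not tested.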

How the data were processed

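The members, gene lists and comparisons were chosen with earlier results of these data known. The deposited table holds log2 intensity per probe set, made by the authors with RMA in Affymetrix Expression Console, per the submitters' processing notes; the 2 sets were normalized apart, as their values show. RNA was labelled with the Ambion WT Expression kit, per the labels' protocols. Depth has no meaning for arrays, and 3 arrays a group limit the precision.

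Of 33297 probe sets 19460 carried 1 symbol, 1754 several, and 12083 were not listed. The probe set with the highest mean stood for each of 18417 symbols. Each set (9 arrays, 6 residual degrees of freedom) was fitted alone with limma 3.58.1 in R 4.3.3, with Benjamini-Hochberg adjustment over all genes; the difference of the WTp53 effect between sets used all 18 arrays with a weight per set. The fitting code was checked on simulated data.

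Per comparison the 5 largest rises and falls past the threshold were named, with the members of highest mean, the processing snoRNAs and every host with 3 or more members, apart from 1 host that is not reported here; further members were named after their values were seen. All 115 members matched RefSeq. Its table gives no strand, so the host is the longest measured gene that contains the member, otherwise the longest gene (5 members lie in several).

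In set 1 residuals of arrays with the same experiment number correlated at 0.11 to 0.57 for all 9 pairs. Arrays of experiment 4 with those of experiment 5 also correlated, at 0.14 to 0.35. The residuals thus set experiment 0 apart, and do not show a pairing by number within experiments 4 and 5. In set 2 arrays of the same experiment correlated at −0.04 to 0.13, which shows no pairing.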

Additional observations from a re-analysis of the deposited data

Results flagged for a closer look

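For 8 members the WTp53 effect differed between the sets by limma's test of the difference, as set 1 minus set 2. It was −1.73 for SNORD59B, −1.25 for SNORD44, −1.07 for SNORD45B, −0.90 for SNORD105, −0.84 for SNORD94, −0.79 for SNORD83A, −0.77 for SNORD34 and −0.70 for SNORD53 (adjusted p = 0.00328, 0.048, 0.00196, 0.026, 0.00111, 0.0163, 0.0143 and 0.0248). SNORD59B, SNORD44, SNORD45B, SNORD83A and SNORD34 fell in set 1 and were not called in set 2. SNORD105 and SNORD94 fell in set 1 and rose in set 2. SNORD53, in the ribosome biogenesis gene WDR43, was not called in set 1 and rose in set 2. SNORD94 read 5.54, 5.50 and 5.65 with vector and 5.32, 5.29 and 5.25 with WTp53 in set 1, and 7.98, 7.93 and 7.93 with vector and 8.47, 8.37 and 8.68 with WTp53 in set 2. The groups did not overlap in either set. Set, normalization and experiment cannot be told apart.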

How the results depend on the processing

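No named call reversed under any alternative run, and 1500 recomputed calls kept their side of the threshold while 116 lost it. This tally is favourable by construction. The 115 members have 115 probe sets, so the mean over probe sets left every member value as it was. Calls of members left out as dim were not counted as lost. Many named members were also chosen for their large differences, so the tally says little about smaller ones. Including probe sets with several symbols gave 39 called members for WTp53 and 33 for ΔNp53:WTp53 against vector in set 1 (25 and 18 otherwise). No call was lost there, and 14 and 15 were gained. That setting adds members (52 imprinted in place of 46), so the counts are not over the same members. Over all genes it gave 5875 and 6655 calls, in place of 5862 and 6640. With the experiment as a replicate block, the counts were 35, 29 and 5 in set 1 (25, 18 and 4 without it) and 40, 41 and 43 in set 2 (38, 37 and 39), and SNORD59B passed between ΔNp53:WTp53 and WTp53. With a spread shared over all 18 arrays, ΔNp53:WTp53 against WTp53 gave 9 calls and tethered WTp53 against WTp53 23, and WTp53 against vector in set 1 was split 13 higher to 21 lower. With only the 6 arrays compared, ΔNp53:WTp53 against WTp53 gave 1 call. Over all genes that comparison gave 449 calls, 2693 with the shared spread, 96 with 6 arrays and 806 with the block.

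Leaving out 1 array at a time gave 19 to 29 called members for WTp53 and 13 to 27 for ΔNp53:WTp53 against vector in set 1, and 1 to 5 between them. In set 2 the ranges were 35 to 39, 29 to 39 and 32 to 42 in the same order of groups. The imprinted median minus that of the other members ranged from 0.19 to 0.28, 0.03 to 0.21 and −0.12 to 0.08 in set 1 and from −0.08 to −0.02, 0.11 to 0.19 and 0.19 to 0.28 in set 2. For WTp53 in set 2 it was −0.09 with all arrays and 0.01 with probe sets of several symbols included. With dim genes left out 1 imprinted member remained in set 2, and that difference was 1.05, −0.027 and −1.01; in set 1 none remained, so no value could be had. Signal near background limits every statement on the imprinted members.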

Other observations

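Small RNA classes outside the C/D box snoRNAs were read on the same arrays. Of all genes, 15.2% rose and 16.6% fell with WTp53 in set 1, and 17.9% rose and 18.9% fell in set 2. From WTp53 to tethered WTp53, 14.9% of all genes rose and 17.5% fell. Of 16 small Cajal body RNAs (SCARNA symbols), which guide modification of spliceosomal RNA, 10 rose and none fell with WTp53 in set 2 (median 0.32), and 12 fell and none rose from WTp53 to tethered WTp53 (median −0.41). In set 1 4 rose and 1 fell with WTp53. Of 61 H/ACA box snoRNAs, 4 rose and 13 fell with WTp53 in set 1, and 25 rose and 5 fell in set 2. On the arrays of tethered WTp53 the H/ACA median was 6.87 to 7.19, below the 7.34 to 7.39 of WTp53 and the 7.41 to 7.53 of vector. This class median was lower with WTp53 than with vector, yet the median of the single H/ACA differences was 0.11. Of 15 genes with RNU symbols, mostly spliceosomal RNAs, 7 rose with WTp53 in set 2 and 6 fell from WTp53 to tethered WTp53. For 179 microRNA genes the counts were 7 higher and 4 lower with WTp53 in set 1, and 10 and 11 in set 2.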
